A study of Mus musculus with 9 samples.

Results

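The 8 genes followed here belong to the AP-1 transcription factor family: the Fos genes Fos, Fosb, Fosl1 and Fosl2, the Jun genes Jun, Junb and Jund, and Atf3. A site was counted for a gene when it stood in the authors' deposited table of sites that differ in chromatin accessibility and that gene's body was, among those of protein-coding genes, the closest to the site centre and no more than 100 kb away. By this rule 10 of the 19165 listed sites belonged to AP-1 genes, and 16454 listed sites belonged to any protein-coding gene. The 10 sites fell on 6 of the 8 genes: 3 on Jun, 2 each on Fos and Fosl2, and 1 each on Fosl1, Junb and Atf3. Fosb and Jund had no row.

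The cells were E14tg2a mouse embryonic stem cells of 129SV background with a stable cassette for cRAF-ErT2, which joins a RAF kinase to an estrogen receptor domain so that 4-hydroxytamoxifen (4OHT) can activate ERK. ATAC-seq, in which the Tn5 transposase tags open DNA, was done on 3 libraries after 1 h and 3 after 2 h of 250 nM 4OHT, against 3 libraries of untreated cells (0 h). All 9 libraries, untreated ones included, came from cells that carried the fusion and had spent the last 24 h in serum and LIF with 250 nM PD173074, an FGF receptor inhibitor; before that the medium held 2 µM Chir99021, a GSK3 inhibitor. Neither cells lacking the fusion nor cells given vehicle were among these libraries, so effects of 4OHT itself and of ERK cannot be told apart, and whether the cells are 1 clone is not given in the labels. The deposited values are 1 mean for the 4OHT side and 1 for the control side at each site, with no value per library and no error. Weights of 6 libraries for 4OHT and 3 for control returned the authors' overall mean with a largest error of 0.00986 (log2), so 1 h and 2 h are treated as pooled. The labels do not say whether libraries A, B and C came from separate cultures. Their description fields tag the libraries titled B as B2 and those titled C as B, so these may be repeats of each other. The spread behind the authors' p-values may therefore be technical.

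AP-1 factors are dimers of basic leucine zipper proteins that bind short palindromic DNA elements. Jun proteins pair with themselves or with Fos proteins, Fos proteins need a Jun partner, and ATF3 can join Jun proteins or pair with itself. Members such as Fos, Fosb, Junb and Atf3 are known as immediate early genes, switched on within minutes of growth factor or stress signals without new protein synthesis. ERK acts on Fos through SRF and its ETS partners at the promoter, and it phosphorylates and stabilises FOS and FOSL1 proteins. In mouse embryonic stem cells ERK signalling is known for driving exit from the naive pluripotent state.

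Accessibility was higher after 4OHT at 9 of the 10 AP-1 sites and lower at 1, a site far upstream of Jun. The share of 90% compares with 54.6% of all listed sites given to a protein-coding gene. Counted by gene, Fos, Fosl1, Fosl2, Junb and Atf3 had only higher sites and Jun had both kinds. So 5 of 6 genes had only higher sites, against 44.5% of the genes with a listed site. This share depends on the number of sites per gene: Fosl1, Junb and Atf3 had 1 site each and could not have both kinds. Having a site at all applied to 6 of the 8 AP-1 genes, against 36% of protein-coding genes. The 9 gains ran from 0.65 to 2.30 on the log2 scale with a median of 1.76. The median gain over all higher sites given to a gene was 1.43. The lower quartile went the other way, 0.75 for AP-1 sites against 1.02. Gains of at least 1 made up 66.7% of the AP-1 gains against 76.3%. Sites of 1 gene share their surroundings and are not independent, and these counts were not tested.

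The Junb and Fos promoters are shown because the listed site of Junb lies over its promoter while those of Fos lie elsewhere. The letters are the 250 bases before the annotated start, from RefSeq on GRCm38.p6, and capitals mark TGACG, the half-site of the cAMP response element, on either strand.
Junb (chr8:84978749-84978998, minus strand): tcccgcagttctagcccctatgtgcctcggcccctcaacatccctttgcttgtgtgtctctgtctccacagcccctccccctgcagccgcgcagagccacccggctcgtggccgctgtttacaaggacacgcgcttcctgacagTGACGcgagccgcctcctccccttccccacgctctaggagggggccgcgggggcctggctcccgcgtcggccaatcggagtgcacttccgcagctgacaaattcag
Fos (chr12:85473640-85473889, plus strand): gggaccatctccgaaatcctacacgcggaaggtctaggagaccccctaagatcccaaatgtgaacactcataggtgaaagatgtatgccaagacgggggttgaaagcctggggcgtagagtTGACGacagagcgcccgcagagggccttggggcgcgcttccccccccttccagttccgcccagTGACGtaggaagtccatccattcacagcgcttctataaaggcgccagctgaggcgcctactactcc

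The promoter table held 7 of the 8 genes; Fosl1 was not matched. Each window of 300 bases, 250 before and 50 after the start, was searched on both strands for 5 motifs: TGANTCA (the AP-1 element), TGACGTCA (the cAMP response element), CCGGAA (an ETS core), GCGTGGGCG (an Egr element) and the CArG box bound by SRF. None of the 5 motifs matched in any of the 7 windows. Over all 32851 promoter windows of the table, 7.81% held TGANTCA, 1.79% TGACGTCA, 14.9% CCGGAA, 0.612% GCGTGGGCG and 1.63% a CArG box. The half-site TGACG, which is part of TGACGTCA and was added after the sequences had been seen, stood in 4 of the 7 windows (Fos, Fosb, Junb and Atf3), against 20.8% of all windows. Those windows came from 27025 genes, more than the 21900 protein-coding ones, and were not matched to the AP-1 windows in GC content. Matches and their lack describe only these windows and say nothing of which factor binds. Only exact matches to these patterns were searched, so a variant of a motif, or a motif outside the windows, would be missed.

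**Figure D1:**
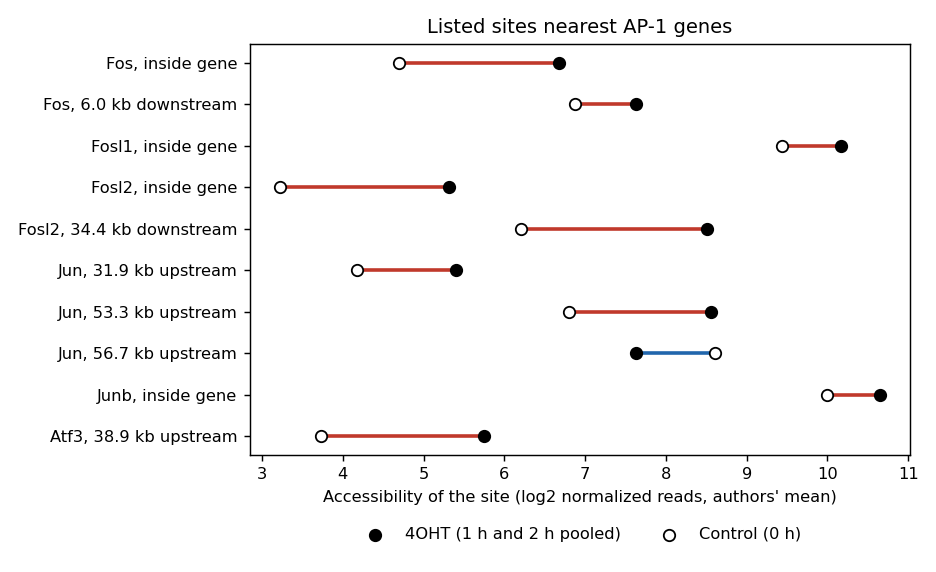
Accessibility at the 10 listed sites nearest AP-1 genes, 1 row per site, as log2 normalized reads on the horizontal axis. Black points are the authors' mean after 4OHT and white points their mean in control libraries. The white point lies left of the black one at 9 sites and right of it at the Jun site 56.7 kb upstream (blue line).

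Fos, the founding partner of Jun in AP-1, had its larger gain inside the gene. In the authors' deposited table this site of 319 bp, at chromosome 12, 85476281 to 85476599 (mm10), stood at 6.67 log2 normalized reads after 4OHT and 4.69 in control cells, or 102 against 25.8 normalized reads. The change of 1.98 is a 3.94-fold gain, with the authors' FDR at 1.48e-05. Its centre lay 2550 bp past the Fos start in a gene of 3385 bp, and the site ended 675 bp before the end of the gene, so it covered the rear part of the gene and not the promoter. The second Fos site, 184 bp wide and centred 6.02 kb beyond the end of the gene, gained less: the authors' deposited table gives it 7.63 after 4OHT and 6.88 in control cells (change 0.75, FDR 0.0056). Higher sites within 0.5 of its mean level on the log2 scale had a median gain of 1.3, above its own, and those near the level of the site in the gene one of 1.56. Both Fos sites thus opened, the one in the gene by 3.94-fold and the downstream one by 1.68-fold.

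At Fosl1, which encodes FRA1, the single site covered the lower-coordinate end of the gene. It was the widest of the 10 sites, with 1720 bp at chromosome 19, 5447330 to 5449049, and in the authors' deposited table it had 10.17 log2 normalized reads after 4OHT and 9.44 in control cells. The change of 0.73 is a 1.66-fold gain (authors' FDR 4.87e-06). By the authors' p it came first among the 9 AP-1 sites that rose, and among higher sites given to a gene 10.3% had a smaller gain. Higher sites of a like mean level (within 0.5 on the log2 scale, 514 sites) had a median gain of 0.695, close to that of Fosl1.

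Fosl2, which encodes FRA2, had the site with the largest gain of the 10. This site of 794 bp, at chromosome 5, 32191874 to 32192667, was centred 34.4 kb beyond the end of the gene and in the authors' deposited table stood at 8.51 log2 normalized reads after 4OHT and 6.21 in control cells. It gained 2.30, or 4.92-fold (authors' FDR 0.00149), where 1381 higher sites of a like mean level had a median gain of 1.14. A site of 282 bp inside Fosl2, at 32146242 to 32146523, had 5.31 after 4OHT and 3.22 in control cells in the authors' deposited table. That is the lowest control level of the 10 sites, 9.32 normalized reads, and its gain of 2.09, where higher sites of a like mean level had a median of 1.85, carried the weakest FDR among them, 0.00693. Neither Fosl2 site touched the start of the gene.

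Fosb, an immediate early partner of Jun, had no site for which it was the nearest gene. Listed sites within 100 kb of it numbered 5, all of them nearest to other genes of this gene-dense stretch and all higher. The closest to Fosb, 33.6 kb beyond its end and inside Vasp, a gene for an actin regulator, was the strongest of them. The authors' deposited table gives it 7.79 log2 normalized reads after 4OHT and 5.19 in control cells, a 6.06-fold gain (FDR 5.09e-08). The other 4, inside Ercc1 (2 sites) and Ppp1r13l and next to Opa3, gained 0.42 to 1.22.

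Jun, the core partner of the family, had 3 sites, none of them at the gene. They lay 31.9, 53.3 and 56.7 kb upstream of its start on chromosome 4. In the authors' deposited table the first, 204 bp at 95084050 to 95084253, had 5.40 log2 normalized reads after 4OHT and 4.17 in control cells (change 1.23, FDR 0.00476). The second, 359 bp at 95105338 to 95105696, had 8.56 after 4OHT and 6.80 in control cells (change 1.76, FDR 0.00434). So the nearer pair opened, by 2.35-fold and 3.39-fold. Higher sites of a like mean level had median gains of 1.8 for the first, above its own, and 1.12 for the second.

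The third Jun site was the exception of the family. At 95108515 to 95109301, 787 bp wide, it had 7.63 log2 normalized reads after 4OHT and 8.61 in control cells in the authors' deposited table. Accessibility there fell by 0.98, a 1.97-fold loss, and lower sites of a like mean level had a median change of -0.85. With the authors' FDR at 3.52e-09 it had the smallest p of the 10 and ranked 279th of all 19165 listed sites. Only 2.82 kb separated it from the edge of the neighbour that rose by 1.76. All 3 upstream sites lie inside Junos, an annotated long non-coding RNA gene (chromosome 4, 95052317 to 95169036) with an end next to the Jun start. Whether these sites act on Jun, on Junos or on any gene was not tested. Next to Jun beyond the 100 kb limit, sites centred 108, 109 and 219 kb upstream changed by 2.23, 0.42 and -0.96.

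Junb, an immediate early Jun gene, had 1 site, and it was the only one of the 10 known to lie over a promoter window. The site of 1571 bp, at chromosome 8, 84977415 to 84978985, held 287 of the 300 bases of the Junb window whose upstream part is printed above, and it covered most of the gene of 1840 bp. In the authors' deposited table it had the highest level per site of the 10, 10.65 log2 normalized reads after 4OHT and 10.0 in control cells, or 1607 and 1024 normalized reads. The change of 0.65, a 1.57-fold gain, had an FDR of 2.19e-04. It was the smallest gain of the family, and 324 higher sites of a like mean level had a median gain of 0.57.

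Jund, a Jun gene with a more constant expression than Junb in most cell types, had no site of its own. Of the 5 listed sites within 100 kb, none lay closer than 41.7 kb, and each was nearest to another gene. The directions split by side in the authors' deposited table. All 3 sites upstream of Jund fell: 2 sites inside Pgpep1 changed by -1.52 and -0.56, and 1 near Gdf15, the gene of a stress cytokine, by -0.83. Both downstream sites rose, inside Pde4c, a cAMP phosphodiesterase gene, by 1.46 and near Rab3a by 0.75. Sites that were not listed are not in the table, so a lack of rows for Fosb and Jund does not show that their own chromatin stayed as it was.

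Atf3, a stress-induced partner that can repress or activate, had 1 site, centred 38.9 kb upstream of its start. It was the narrowest of the 10, with 177 bp at chromosome 1, 191222108 to 191222284, and in the authors' deposited table stood at 5.75 log2 normalized reads after 4OHT and 3.73 in control cells. It gained 2.02, or 4.06-fold (FDR 6.13e-04), with 53.8 normalized reads after 4OHT and 13.3 in control cells, and higher sites of a like mean level had a median gain of 1.74. The nearest annotated gene of any type was the long non-coding RNA gene D730003I15Rik, 2.26 kb from the centre. On the other side of Atf3 a site nearest Fam71a, 31.5 kb from Atf3, changed by -0.86.

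**Figure D2:**
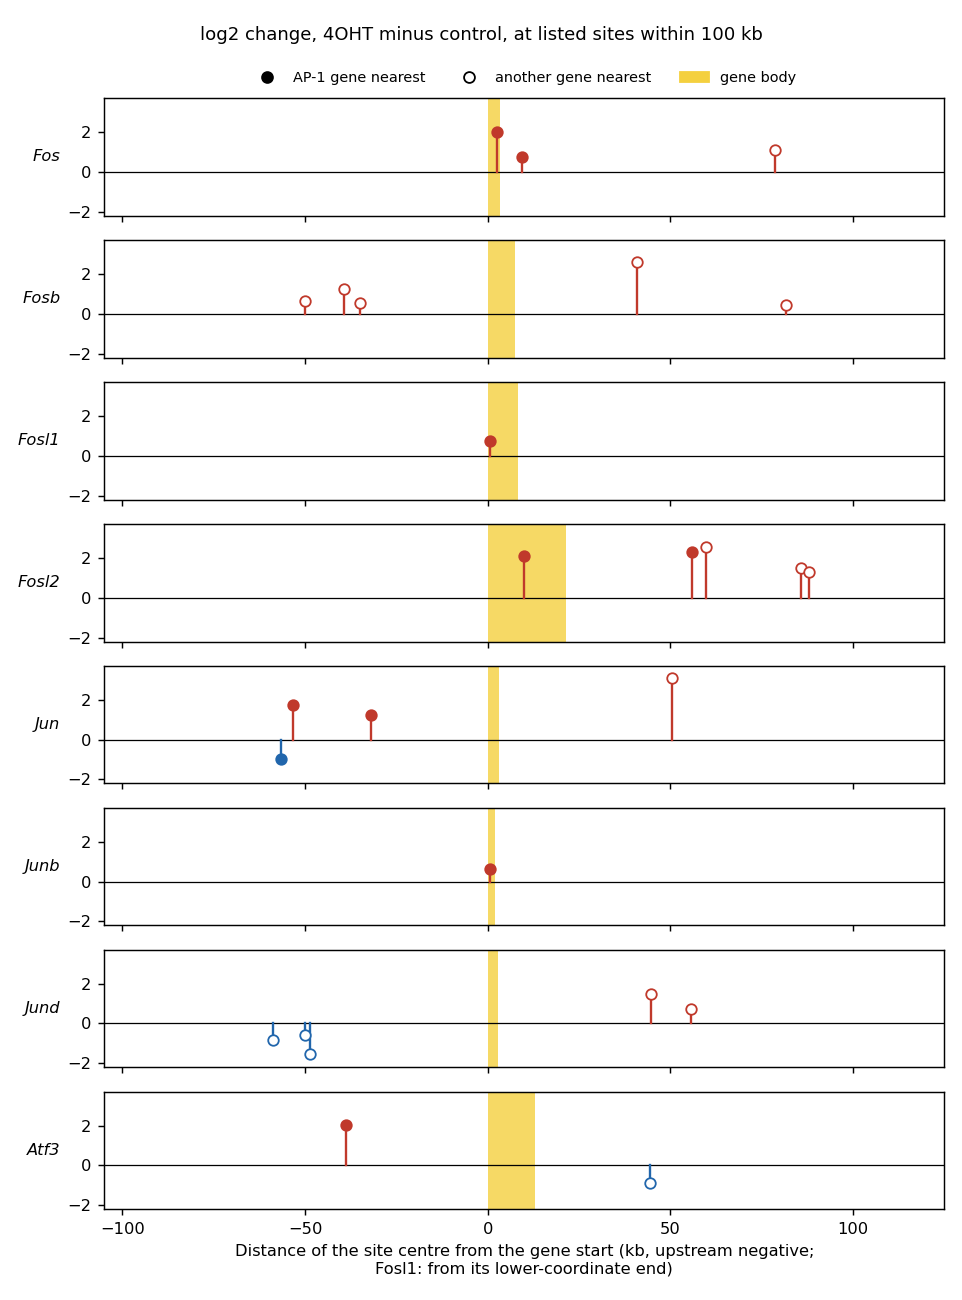
Changes at all 26 listed sites within 100 kb of each AP-1 gene. The horizontal axis is the distance of the site centre from the gene start in kb (for Fosl1, from its lower-coordinate end), and the vertical axis the log2 change, 4OHT minus control; filled points have the AP-1 gene as the nearest gene, open points another gene. Open red points stand beside Fosl2 and Fosb, and the 3 sites upstream of Jund point down.

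Taking every listed site within 100 kb, whichever gene is nearest, gave 26 sites, 21 higher and 5 lower. That is 80.8% higher, against 54.6% of all listed sites given to a protein-coding gene, with a median change of 1.155 against 0.68. Over all listed sites, those far from genes included, the values were 52.6% and 0.59. The 16 sites that the nearest-gene rule gives to other genes were higher in 12 cases (75%). The stretch beyond the end of Fosl2 held 4 of the sites, 1 given to Fosl2 and 3 to Plb1, a phospholipase gene. In the authors' deposited table these 4 gained 2.30, 2.53, 1.5 and 1.27, in order of distance from Fosl2. With the site inside the gene, all 5 sites of the Fosl2 window rose. The largest gain in any AP-1 window was 47.3 kb beyond the end of Jun, nearer to Mysm1, a histone H2A deubiquitinase gene: 7.81 log2 normalized reads after 4OHT and 4.70 in control cells (change 3.11, FDR 0.00102, authors' deposited table). One Fos-side site went to Jdp2, which encodes a repressor that pairs with Jun proteins, and rose by 1.09 (FDR 0.00176). Jdp2 itself had both directions: its other listed site, inside the gene and outside the Fos window, changed by -0.89 (FDR 1.65e-04).

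The sites differed in width and in place. Those of Fosl1 and Junb, each over an end of its gene, were 1720 and 1571 bp wide, and the other 8 were 177 to 794 bp wide. The gains of the wide pair were 0.73 and 0.65. Of the 7 narrower sites that rose, the downstream Fos site gained 0.75 and the other 6 gained 1.23 or more. Level differed as well as width: the wide pair had the highest mean levels of the 10. Higher sites of a like mean level had median gains of 0.695 for Fosl1 and 0.57 for Junb. How width, place and level each relate to the gain was not tested. Per kb of site, the authors' means were 1023 normalized reads after 4OHT and 652 in control cells at Junb, and 670 and 404 at Fosl1. The upstream Jun site at 95105338 had 1051 per kb after 4OHT and 310 in control cells, and the downstream Fos site 1077 and 640. So the highest values per kb after 4OHT were at these 2 narrow sites and the Junb site, at 1023 to 1077. These values depend on site width, and how reads at site edges were counted is not known. The lowest density was inside Fosl2, at 141 normalized reads per kb after 4OHT and 33.0 in control cells.

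**Figure D3:**
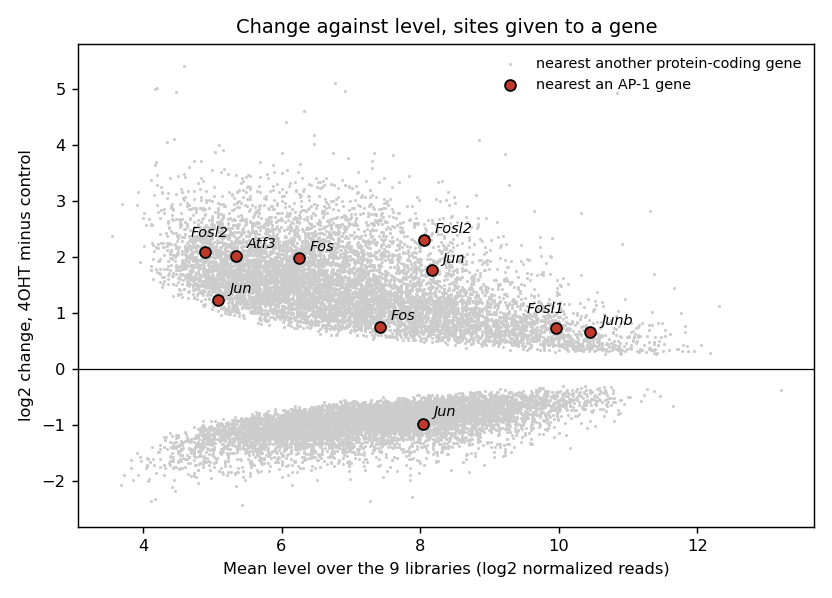
Log2 change, 4OHT minus control, against the authors' mean level over the 9 libraries, for listed sites given to a protein-coding gene. Grey points are sites nearest other genes and red points the 10 AP-1 sites. Fosl1 and Junb lie at the high end of the level axis with gains of 0.73 and 0.65, and the single red point below 0 is the Jun site 56.7 kb upstream.

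Other genes of the pathway were taken as lists, with the nearest-gene rule unchanged, and their counts were not tested. Basic leucine zipper genes that can partner or compete with AP-1 had a site at 14 of 27 genes, where 36% of all protein-coding genes have one. Of their sites 34 of 44 were higher (77.3%), against the 54.6% of all sites given to a gene. Both directions occurred at 6 of these genes, 2 fell at each of their sites and 6 of 14 rose at each, where the share over all genes with a site is 44.5%. In the authors' deposited table the higher sites with the smallest p were those of Nfe2l2, the oxidative stress factor (change 2.61, FDR 1.32e-07), Creb5 (3.01, FDR 1.11e-06), Mafk (1.62, FDR 2.64e-06) and Atf7 (3.26, FDR 2.67e-05). The lower sites with the smallest p were at Creb5 (-0.77), Nfe2l1 (-0.85), Batf (-1.83) and Bach1 (-1.01). Creb5 held 9 higher sites and 1 lower, so 9 of the 34 were from 1 gene.

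Upstream regulators of Fos and Jun had a site at 17 of 24 genes, where 36% of all protein-coding genes have one. Of their sites 25 of 39 were higher (64.1%), near the 54.6% of all sites given to a gene. Srf, whose protein binds the Fos promoter, had 1 site, with 8.90 log2 normalized reads after 4OHT and 7.70 in control cells (change 1.20, FDR 1.56e-08, authors' deposited table). Mapk8, which encodes the Jun kinase JNK1, had a site that rose by 2.03 and another that fell, and sites of Rps6ka5 and Mef2a rose by 1.68 and 1.24. All 4 sites of Rps6ka2, an RSK kinase gene, fell, the first by 1.17 on the log2 scale (FDR 1.18e-05). Fbxw7, a ubiquitin ligase subunit that targets Jun, had 2 higher and 3 lower sites.

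Genes known as AP-1 targets in other cells had a site at 18 of 30 genes, with 32 of 40 sites higher (80%), where the shares over all protein-coding genes and over all sites given to one are 36% and 54.6%. Each listed site rose at 12 of these 18 genes, where 44.5% of all genes with a listed site have only higher sites, each fell at 3, and 3 had both directions. Plaur, the urokinase receptor gene, named here after its values were seen, held 10 of the 32 higher sites. Fosl1 is on this list too, so 1 of its 40 sites is also one of the 10. In the authors' deposited table Hbegf, the gene of an EGF receptor ligand, had 5 higher sites and no lower one, and its first site had 6.41 log2 normalized reads after 4OHT and 2.90 in control cells (change 3.51, FDR 1.38e-10). The first sites of Hmox1, heme oxygenase, and Itga5, an integrin, gained 1.95 (FDR 3.61e-11) and 2.41 (FDR 2.01e-08). Sites nearest Mmp13, a collagenase gene, and Vegfa, an angiogenic factor gene, fell by 1.26 and 1.02 on the log2 scale.

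**Figure D4:**
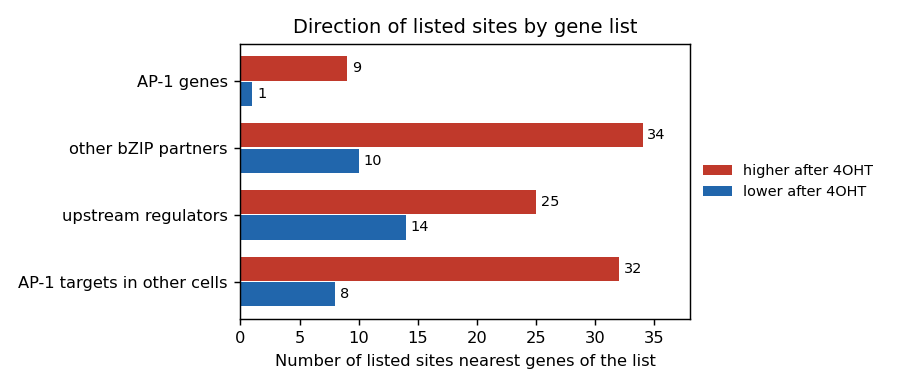
Number of listed sites that were higher (red) and lower (blue) after 4OHT, for AP-1 genes and 3 lists of related genes; the horizontal axis counts sites. Higher sites outnumber lower ones in each, 9 to 1 for AP-1 genes and 25 to 14 for upstream regulators.

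Accessibility of changed sites cannot show which cells were present. Of 6 embryonic stem cell markers, all had a listed site, with 11 of 17 sites higher (64.7%, against 54.6% of all sites given to a gene). Zfp42 alone held 6 of the 11. By gene the directions were mixed: 3 markers had only higher sites, 2 (Klf4 and Nanog) only lower ones, and Esrrb had 3 higher and 4 lower. Of 8 fibroblast markers, which feeder cells would carry, 3 had a listed site, close to the 36% of all protein-coding genes. All 11 of these sites fell, against 7463 of the 16454 sites given to a gene, and 9 of the 11 were at Fn1. The part of a change in cell makeup in the AP-1 result was not tested.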

How the data were processed

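The authors' deposited table gives, per site, mean levels as log2 normalized reads, a log2 fold, a p-value and an FDR, per the file headers. Per the submitters' processing notes, Bowtie2, bedtools, MACS2 and build mm10 were used, without stated roles. The sources used here do not give the authors' test, normalization or treatment of duplicates and Tn5 offsets. Read depth is unknown as well, so no interval could be set on a level. The authors' fold is control minus 4OHT; changes here are the 4OHT level minus the control level, equal to the turned fold within 0.01. Every listed FDR is 0.01 or less. P-values and FDRs were copied, not refitted, and the counts have no test of their own.

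Genes came from a RefSeq table of GRCm38.p6 (21900 protein-coding genes), the assembly mm10 names, and strand from its promoter table. That gene table has no exons or UTRs. No AP-1 site had 2 genes at equal distance, and 93 sites elsewhere did. The assignment was checked on 200 simulated sites, with 0 wrong distances. Members and lists were chosen with earlier results of these data known. All AP-1 sites are named, and of each list up to 4 genes per direction by the authors' p. Of 27 symbols on the upstream list, Mkl1, Mkl2 and Rfwd2 are older names of Mrtfa, Mrtfb and Cop1. Columns of other samples numbered 0. Python 3.11.15, pandas 2.3.3, numpy 2.4.6 and matplotlib 3.10.9 were used.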

Additional observations from a re-analysis of the deposited data

How the results depend on the processing

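The median change was above 0 in each alternative run, from 0.73 to 2.00 on the log2 scale against 1.495. All alternatives but the one with 26 sites used these 10 sites or a part of them. With only 1 lower site among the 10, their medians could not fall below 0, so they do not test the direction. Counts that differed by more than a factor of 1.5, or medians by more than 0.1, were called moved: 16 results moved and 18 did not. A window of 25 kb left 5 sites, all 5 higher, with a median of 0.75, and one of 50 kb left 8, all higher, with a median of 1.605. With FDR under 0.001 there were 5 sites, 4 of them higher, with a median of 0.73 and none at Fosl2. A change of at least 1 in size left 6 sites, all higher, with a median of 2.00, and none at Fosl1 or Junb. Using the nearest gene of any type left 5 sites, all 5 higher, with a median of 0.75: the 3 Jun sites went to Junos, the Atf3 site to D730003I15Rik and the distal Fosl2 site to the pseudogene Gm9555. Taking every site within 100 kb gave 26 sites, 21 higher, with a median of 1.155. The median over genes was 1.297. Distances from the site edge or to the nearer gene end gave the same 10 sites. No paired analysis was possible because the table holds no values per library, and for the same reason no library could be left out. The levels rest on an unknown depth. The folds of the Fosl2 site inside the gene and of the Atf3 site rest on control means of 9.32 and 13.3 normalized reads. That of the Jun site 31.9 kb upstream rests on a control mean of 18.0.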
